A study of Mus musculus with 30 samples.

Results

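The 10 genes described here encode enzymes, and 1 helper protein, that make or break down eicosanoids and platelet-activating factor: Alox5, Alox5ap, Alox15, Lta4h, Ltc4s, Ptgs1, Ptgs2, Ptges, Hpgds and Pla2g7. They were chosen by name for what their proteins do, from the 45317 genes of the count tables. Earlier results of these data were known when they were chosen. All 10 passed the filter on low counts and were among the 11566 genes tested.

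RNA-seq read counts were available for 8 populations of monocytes and macrophages sorted from mice that carried an intracranial GL261 glioma, a syngeneic mouse tumour line labelled with a membrane-anchored GFP. Every animal was a C57BL6.CCR2RFP/WT mouse of 12 to 18 weeks, in which 1 allele of Ccr2 is replaced by a red fluorescent protein, so the CCR2 gate reads this reporter and all populations share the loss of 1 Ccr2 allele. The blood gave Ly6Chigh and Ly6Clow monocytes (3 mice each), gated on CD45, CD115 and low CD11c. The brain gave CD11b high, CD45 high cells that were split into glioma monocytes (3 mice), CCR2high macrophages (4 mice) and CCR2low macrophages (4 mice), and each of these into cells with GFP taken up from the tumour (GFPpos) and cells without it (GFPneg). No mouse without a tumour was analysed here. The brain was dissociated with enzymes and the blood was not, so compartment and handling cannot be told apart in any blood to brain comparison. The same 4 mice, numbered 22, 23, 24 and 26, gave the populations. Mouse 26 gave no blood replicate, and mouse 23 gave no glioma monocytes.

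The 28 replicates held 1553620 to 5689640 reads assigned to genes. Values are normalized read counts, scaled per library (CPM). Adjusted p-values are from edgeR's quasi-likelihood test over all 11566 genes with Benjamini-Hochberg adjustment, and a gene was called at an adjusted p under 0.05. The summed level of 8 monocyte and macrophage markers was 3382 to 9954 CPM in every replicate. The 5 markers of microglia, the resident macrophages of the brain that the sort was meant to leave out, summed to 0.943 to 57.4 CPM in blood and 759 to 5347 CPM in the brain populations. The Ly6Clow replicate of mouse 24 stood apart from the other 2: without it the count of all genes called between the blood populations rose from 649 to 2444. The Ly6Clow replicate of mouse 23 had 13.3% of its reads on spike-in RNA. In such bulk samples, fewer cells of a type and less RNA per cell cannot be told apart.

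Eicosanoids are short-lived lipid signals made from arachidonic acid, which phospholipases free from membranes. The lipoxygenase branch is opened by ALOX5 with its partner FLAP (Alox5ap) and yields leukotriene A4, which Lta4h turns into the neutrophil attractant leukotriene B4 and Ltc4s into the cysteinyl leukotrienes. The cyclooxygenases Ptgs1 and Ptgs2 make prostaglandin H2, from which terminal synthases such as Ptges and Hpgds form prostaglandins E2 and D2. In macrophages these enzymes are known to change with maturation, tissue of residence and inflammatory stimuli.

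Ltc4s, Ptgs1, Hpgds and Ptgs2 were low in blood and higher in the brain. The 250 bases upstream of the RefSeq start (build GRCm38.p6) were searched for AGGAAGT, the core of sites bound by ETS factors such as the myeloid factor PU.1, for TTGCGCAA, a palindrome bound by C/EBP factors, for TATAAA and for CACGTG, on both strands. These motifs were chosen with the sequences and the values in view, and none overlapped another. RefSeq held a promoter for 8 of the 10 genes. AGGAAGT was found in 3 of them, those of Ltc4s, Ptgs1 and Hpgds, on the strand of the gene and starting 117, 23 and 48 bases upstream of the start. Ptgs2 held no AGGAAGT. The sites are shown because the mean levels of these 3 genes were highest in CCR2low macrophages, 5′ to 3′ with the motif in capitals and 10 bases on either side, at chr11:50238633-50238659 (minus strand) for Ltc4s, chr2:36230393-36230419 (plus strand) for Ptgs1 and chr6:65144762-65144788 (minus strand) for Hpgds.

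Ltc4s: aacaactggaAGGAAGTggtcaagctg

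Ptgs1: gctggagcagAGGAAGTtggcggtcag

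Hpgds: ttttaggtggAGGAAGTggcctctggc

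Of 32817 promoter windows of the same length, 7.69% held AGGAAGT. GENCODE vM21 begins its Hpgds transcript further upstream, so the Hpgds site lies inside the first, untranslated exon of that model. The Ptgs2 promoter (chr1:150099781-150100030, plus strand) is given whole because Ptgs2 was at or near 0 in blood and present in every brain replicate. It held TTGCGCAA, in capitals, starting 69 bases upstream of the start.

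Ptgs2: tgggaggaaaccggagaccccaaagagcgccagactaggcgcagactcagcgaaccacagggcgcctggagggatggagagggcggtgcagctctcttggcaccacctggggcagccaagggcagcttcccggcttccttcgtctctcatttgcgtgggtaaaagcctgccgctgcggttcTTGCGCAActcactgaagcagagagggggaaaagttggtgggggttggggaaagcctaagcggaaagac

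The motif TTGCGCAA was in 0.164% of all windows. TATAAA (12.4% of windows) and CACGTG (6.02%) were in none of the 8 upstream windows. A match is a string of letters and says nothing of occupancy.

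**Figure D1:**
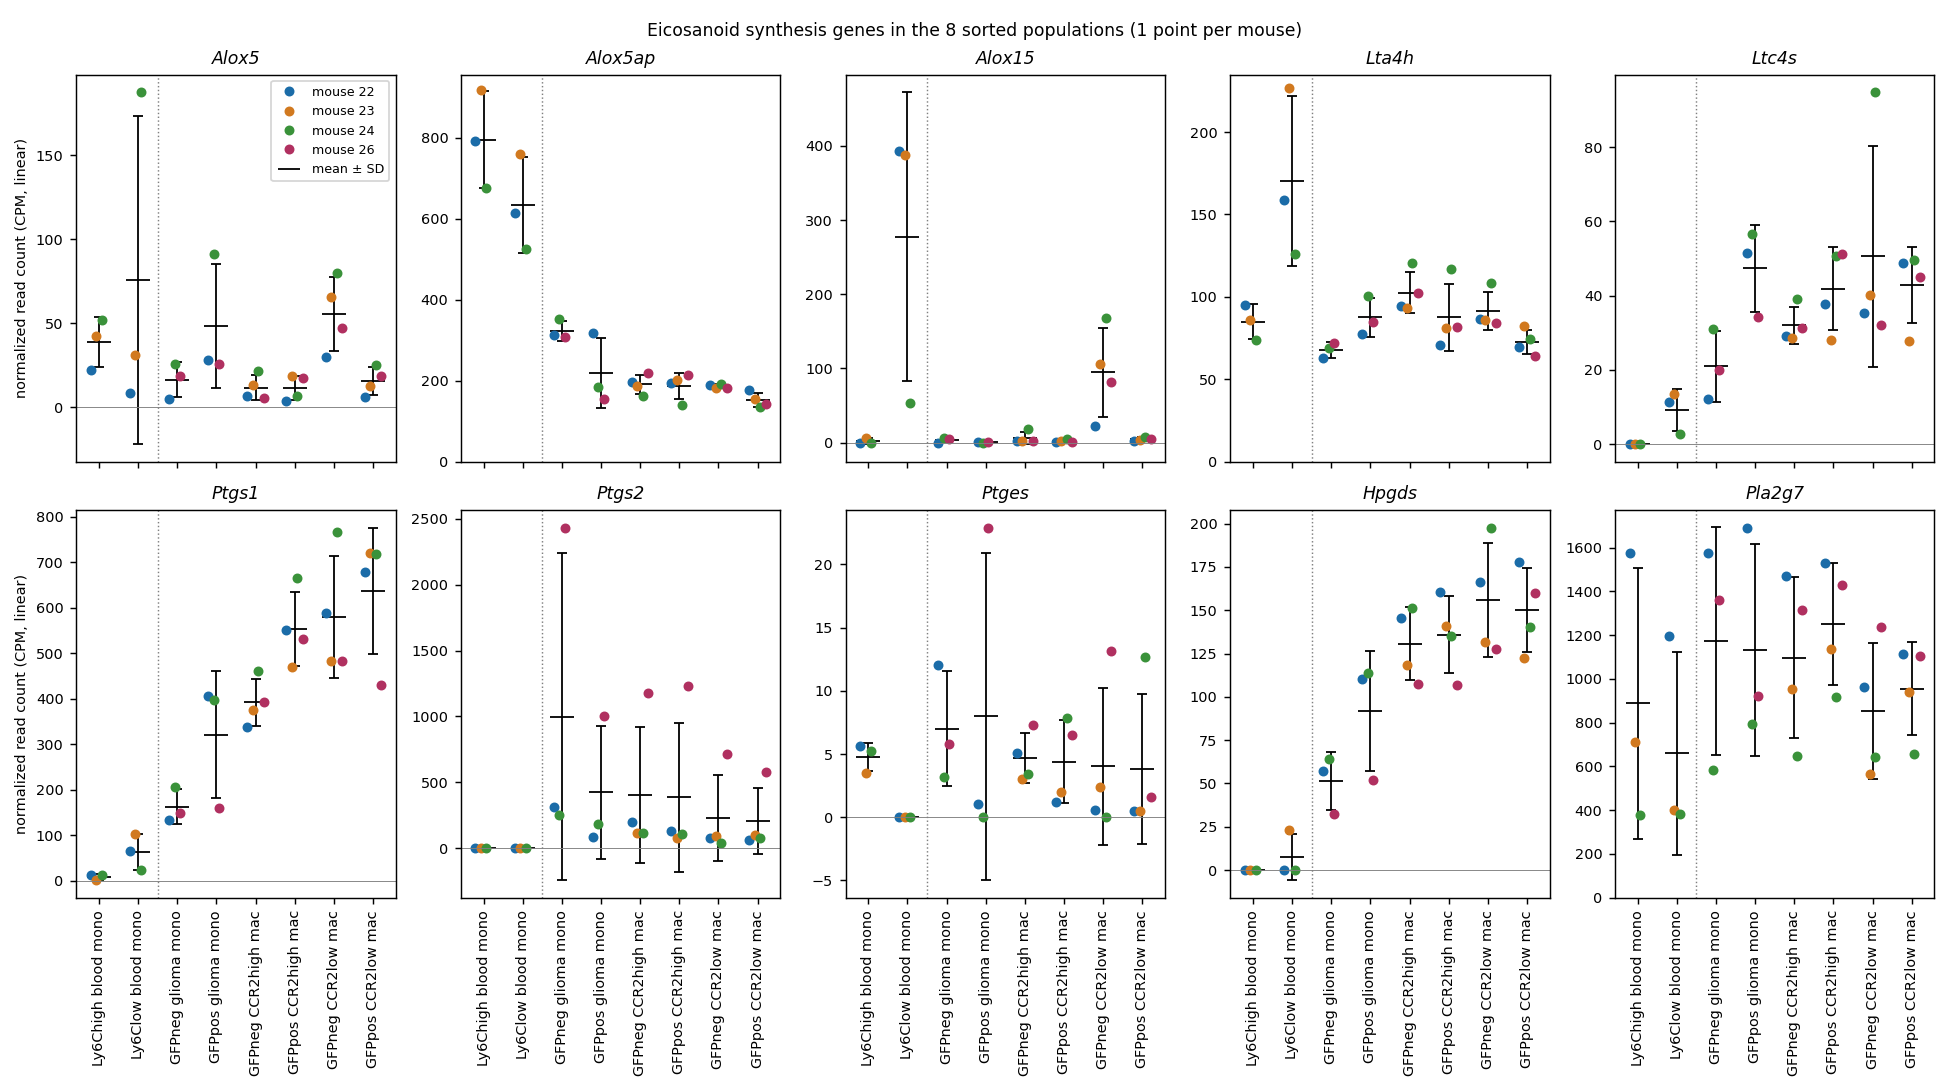
Normalized read counts (CPM, linear axis) of each gene in the 8 populations, 1 point per mouse, coloured by mouse, with the mean and SD as bars; blood lies left of the dotted line. Ltc4s, Ptgs1 and Hpgds climb from blood to macrophages, Alox5ap falls, Ptgs2 is near 0 in blood and highest in mouse 26 in every brain population, and Alox15 stands out in Ly6Clow monocytes and GFPneg CCR2low macrophages.

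Compared per length of exon, the mix of transcripts differed between populations. In Ly6Chigh monocytes the mean level per kb was 560.3 CPM for Alox5ap and 306 CPM for Pla2g7, and no other member exceeded 13.9 CPM per kb, the level of Lta4h. In GFPneg CCR2low macrophages Pla2g7 was at 293 CPM per kb, Ptgs1 at 149, Alox5ap at 132, Ptgs2 at 50.4 and Ltc4s at 49.9. In GFPneg glioma monocytes Ptgs2 reached 218 CPM per kb, close to Alox5ap at 228, but most of that mean came from 1 mouse. Ptges did not exceed 2.03 CPM per kb in any population.

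**Figure D2:**
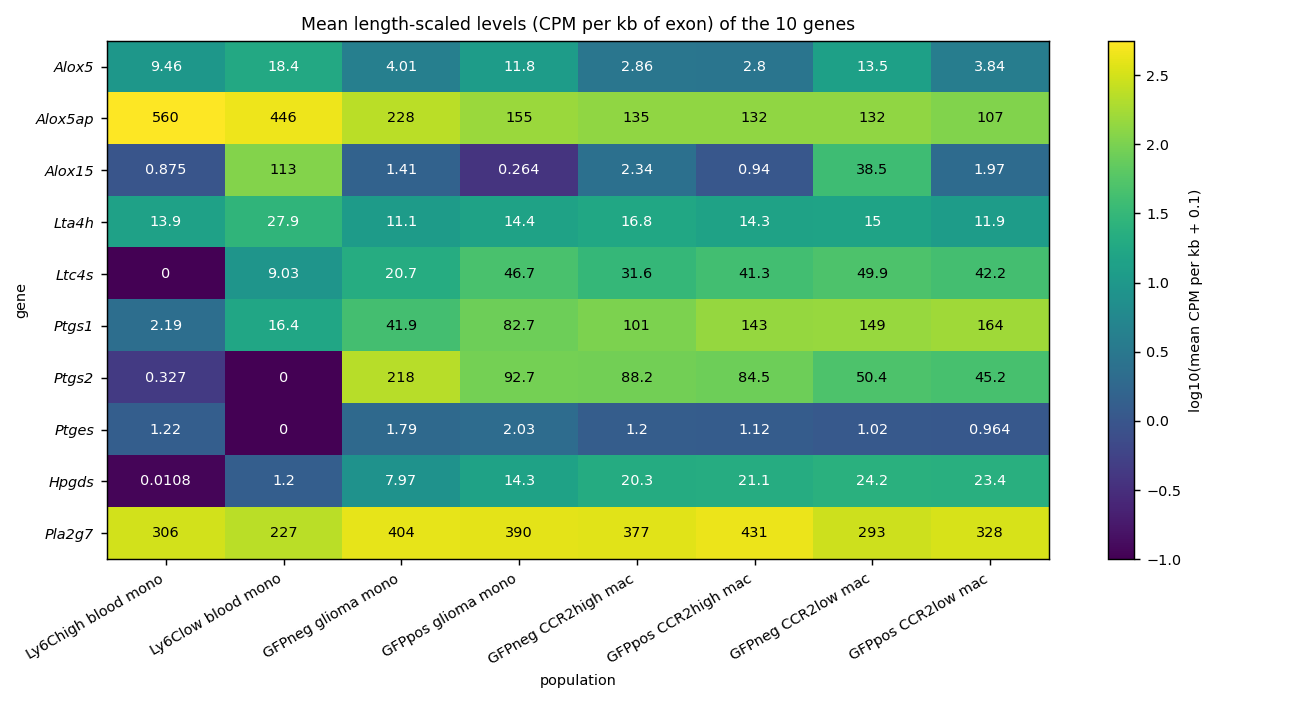
Mean level per kb of exon (CPM per kb, printed in each cell; colour is log10 of the value plus 0.1) of the 10 genes (rows) in the 8 populations (columns). Alox5ap and Pla2g7 lead in blood, and Ptgs1, Ptgs2, Ltc4s and Hpgds fill in the brain columns.

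The leukotriene enzymes did not move together. Alox5ap (chr5:149264767-149288153, plus strand), which encodes the protein that presents arachidonic acid to ALOX5, had 793, 917 and 676 CPM in Ly6Chigh monocytes (mice 22, 23 and 24) and 616, 761 and 525 CPM in Ly6Clow monocytes. It had 313, 352 and 307 CPM in GFPneg glioma monocytes (mice 22, 24 and 26). It had 197, 188, 163 and 219.8 CPM in GFPneg CCR2high and 189, 183, 193 and 182 CPM in GFPneg CCR2low macrophages (mice 22, 23, 24 and 26). No brain replicate reached the lowest blood replicate: the 22 brain replicates ran from 136 to 352 CPM and the 6 blood replicates from 525 to 917 CPM. The fitted log2 difference from Ly6Chigh monocytes was −1.30 ± 0.23 (SE) in GFPneg glioma monocytes (adjusted p = 0.000271), −2.05 ± 0.22 in CCR2high (adjusted p = 1.25e-07) and −2.09 ± 0.22 in CCR2low macrophages (adjusted p = 8.31e-08). Against Ly6Clow monocytes the differences were −0.97 ± 0.23 (adjusted p = 0.00409), −1.72 ± 0.21 (adjusted p = 1.58e-06) and −1.76 ± 0.21 (adjusted p = 1.08e-06). All 6 calls were lost when libraries were scaled to spike-in RNA (adjusted p from 0.118 to 0.971). The direction was kept once the shift in the median of all genes was taken off, a step that returns most of the change in scale. Against Ly6Clow monocytes the remaining differences were −0.65, −1.40 and −1.44 in the same order of populations. The shifts taken off there were 1.46, 1.62 and 1.48, so before that step Alox5ap lay above Ly6Clow monocytes in each. The spike-in p-values test the differences before that step. With the mouse as a block, Alox5ap was also called lower in GFPneg CCR2high (adjusted p = 0.0496) and CCR2low macrophages (adjusted p = 0.0182) than in GFPneg glioma monocytes, which it was not without the block (adjusted p = 0.204 and 0.0663). An antisense gene, Gm19719, covers 13.3% of the exons of Alox5ap, and the strand setting of the counting was not given, so a small share of its reads is uncertain.

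Alox5 itself (chr6:116410077-116461178, minus strand), which starts leukotriene synthesis, was scattered between mice. Ly6Clow monocytes held 8.49, 30.8 and 188 CPM, the widest spread of any population. GFPneg CCR2high macrophages held 6.94, 13.2, 21.5 and 5.26 CPM, and GFPneg CCR2low macrophages held 29.7, 65.6, 80.0 and 46.9 CPM. The groups of CCR2low and CCR2high GFPneg macrophages did not overlap, yet the log2 difference of 2.25 ± 0.74 did not pass adjustment (adjusted p = 1). The one call was a lower level in GFPneg CCR2high macrophages than in Ly6Clow monocytes (log2 difference −2.69 ± 0.78, adjusted p = 0.0138). That call was lost without the Ly6Clow replicate of mouse 24 (−0.70, adjusted p = 0.490) and without the CCR2high replicate of mouse 22 (adjusted p = 0.0509). Against Ly6Chigh monocytes the same macrophages differed by −1.73 ± 0.77 (adjusted p = 0.126), and with the mouse as a block this was called (adjusted p = 0.0215). GFPneg glioma monocytes differed from Ly6Clow monocytes by −2.20 ± 0.85 (adjusted p = 0.0709), and passed without Ly6Clow mouse 22 (adjusted p = 0.0227) or 23 (adjusted p = 0.0499). Without Ly6Clow mouse 24 that difference shrank to −0.22 (adjusted p = 0.859).

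Lta4h (chr10:93453411-93484875, plus strand), the leukotriene B4 enzyme, was highest in Ly6Clow monocytes, with 159, 227 and 126 CPM. Ly6Chigh monocytes held 94.9, 86.1 and 73.8 CPM and GFPneg glioma monocytes 62.7, 69.1 and 72.3 CPM. Every Ly6Clow replicate lay above all 22 brain replicates, which ran from 62.7 to 120.5 CPM. The left-out Ly6Clow library of mouse 23 held 1 read of Lta4h. Lta4h was 2.01-fold higher in Ly6Clow than in Ly6Chigh monocytes (log2 difference 1.0 ± 0.25, adjusted p = 0.0150). It was lower than in Ly6Clow monocytes in GFPneg glioma monocytes (−1.32 ± 0.25, adjusted p = 0.000405), CCR2high macrophages (−0.73 ± 0.23, adjusted p = 0.0207) and CCR2low macrophages (−0.90 ± 0.23, adjusted p = 0.00507). The call between the blood populations was lost in 3 of 6 fits that left out 1 replicate (without mouse 23 of either population or mouse 24 of Ly6Chigh, adjusted p from 0.0818 to 0.0936), and the CCR2high call without CCR2high mouse 22 or 23 or Ly6Clow mouse 23 (adjusted p = 0.0985, 0.0586 and 0.116). The blood call and both macrophage calls were also lost with no filter (adjusted p from 0.0719 to 0.191), and all 4 Lta4h calls with only the compared populations (adjusted p from 0.129 to 0.613) and with spike-in scaling (adjusted p from 0.218 to 0.584). Against Ly6Chigh monocytes no brain population was called for Lta4h.

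Ltc4s (chr11:50236461-50238616, minus strand), the cysteinyl leukotriene enzyme, was at 0 counts in all 3 Ly6Chigh replicates. Ly6Clow monocytes held 11.3, 13.5 and 2.66 CPM. GFPneg glioma monocytes held 12, 31.1 and 20 CPM, and GFPneg CCR2high macrophages 29.0, 28.5, 39.2 and 31.3 CPM. GFPneg CCR2low macrophages held 35.2, 40.1, 94.8 and 32.2 CPM, where mouse 24 was far above the other mice. Set against a floor of 3 counts per library, Ltc4s was at least 6.75-fold higher in Ly6Clow monocytes than in Ly6Chigh monocytes (adjusted p = 6.71e-05), at least 15.5-fold in GFPneg glioma monocytes (adjusted p = 6.82e-07), at least 23.6-fold in CCR2high (adjusted p = 1.39e-07) and at least 37.3-fold in CCR2low macrophages (adjusted p = 4.34e-08). The floor covers counting error only. With spike-in scaling the call between the blood populations was lost (adjusted p = 0.103). Against Ly6Clow monocytes Ltc4s was 3.49-fold higher in CCR2high (log2 difference 1.81 ± 0.51, adjusted p = 0.0120) and 5.52-fold higher in CCR2low macrophages (2.47 ± 0.52, adjusted p = 0.00125), and was not called in glioma monocytes, which overlapped Ly6Clow. With only the compared populations both macrophage calls were lost (adjusted p = 0.189 and 0.112). Glioma monocytes were called over Ly6Clow with spike-in scaling (adjusted p = 0.0188). Gm26542, an antisense gene, covers 26.4% of the Ltc4s exons, so its reads are uncertain to that extent. The microglia markers given above rose with Ltc4s, Ptgs1 and Hpgds from blood to brain, and their part in these results was not tested.

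The share of the 2 enzymes that compete for leukotriene A4 can be given per length. Ltc4s made up 0% of the length-scaled sum of Ltc4s and Lta4h in all Ly6Chigh replicates and 11.3, 26.4 and 30.1% in those of Ly6Clow monocytes, in rising order. In the brain the share was 53.6 to 84.0% in every replicate. The blood and brain ranges did not overlap.

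**Figure D3:**
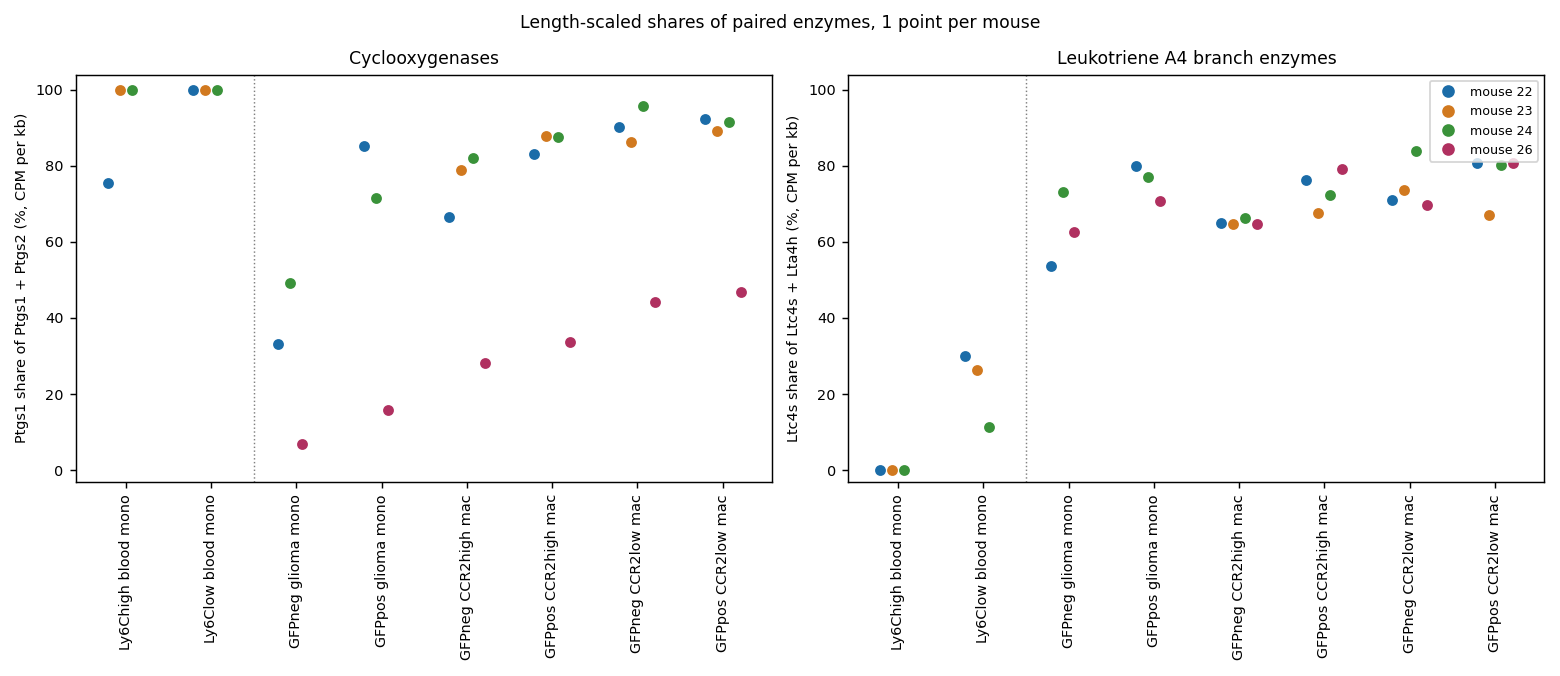
Left, Ptgs1 as a percent of Ptgs1 plus Ptgs2; right, Ltc4s as a percent of Ltc4s plus Lta4h, both from CPM per kb of exon, 1 point per mouse, for the 8 populations. The Ltc4s share passes 50% in every brain replicate, and the Ptgs1 share is lowest in mouse 26 in all 6 brain populations.

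Both cyclooxygenases were low in blood and high in the brain, each with its own order of populations. Ptgs1 (chr2:36230426-36252272, plus strand), known as the constitutive cyclooxygenase, held 11.8, 1.76 and 11.9 CPM in Ly6Chigh and 65.6, 102 and 23.1 CPM in Ly6Clow monocytes. GFPneg glioma monocytes held 133, 206 and 149 CPM. GFPneg CCR2high macrophages held 337, 376, 462 and 392 CPM and GFPneg CCR2low macrophages 589, 483, 767 and 484 CPM. These 5 populations did not overlap at any step of that order. The share of all genes for which this holds was not counted. Ptgs1 was 7.49-fold higher in Ly6Clow than in Ly6Chigh monocytes (log2 difference 2.84 ± 0.48, adjusted p = 0.000734), and by 2.24 on the log2 scale without Ly6Clow mouse 23 (adjusted p = 0.00586). That call was lost with spike-in scaling and with only the compared populations (adjusted p = 0.518 in the latter). Over Ly6Chigh Ptgs1 was 19.2-fold higher in GFPneg glioma monocytes (adjusted p = 1.24e-06), 46.2-fold in CCR2high (adjusted p = 2.87e-08) and 68.4-fold in CCR2low macrophages (adjusted p = 7.52e-09). Over Ly6Clow the folds were 2.56 (adjusted p = 0.0310), 6.16 (adjusted p = 9.45e-05) and 9.13 (adjusted p = 9.51e-06). The first of these 3 calls was lost without GFPneg glioma monocyte mouse 24 or Ly6Clow mouse 22 or 24 (adjusted p = 0.103, 0.0582 and 0.0885). It was also lost with only the compared populations (adjusted p = 0.360).

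Ptgs1 was also 1 of the 2 members called within the brain: GFPneg CCR2low macrophages were 3.57-fold above GFPneg glioma monocytes (log2 difference 1.83 ± 0.42, adjusted p = 0.0266). The call was lost in 5 of 7 fits that left out 1 replicate: without CCR2low mouse 22 or 24 or without any 1 of the 3 glioma monocyte replicates (adjusted p from 0.0573 to 0.149). Spike-in scaling ended it as well. CCR2high macrophages were 2.41-fold above glioma monocytes without passing (log2 difference 1.27 ± 0.41, adjusted p = 0.355).

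Ptgs2 (chr1:150100031-150108227, plus strand), the inducible cyclooxygenase, was at 0 in 5 of the 6 blood replicates, the exception being Ly6Chigh mouse 22 with 4.49 CPM. GFPneg glioma monocytes held 317, 252 and 2429.9 CPM. GFPneg CCR2high macrophages held 201, 119, 119 and 1177 CPM and GFPneg CCR2low macrophages 75.4, 90.8, 40.2 and 716 CPM. The last value of each set is mouse 26. Mouse 26 was 5.4 to 9.36 times the next mouse in every one of the 6 brain populations, GFPpos ones included. The sum of 6 platelet markers was also highest in mouse 26 in each brain population (141 to 254 CPM, 13.9 to 126 CPM in the other mice). Among these genes Pf4 had a mean of 122 CPM in its highest population, and no other exceeded a mean of 14.2 CPM. Gp1bb, Treml1 or both were at 0 throughout in each brain population. The part of platelets in the result was not tested. Mouse 26 gave no blood replicate, so no blood value of that animal can be set beside it.

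Despite this spread all 6 blood to brain differences of Ptgs2 were called. Over Ly6Chigh monocytes the log2 difference was 9.72 ± 2.02 in GFPneg glioma monocytes (adjusted p = 0.00153), 8.42 ± 1.93 in CCR2high (adjusted p = 0.00289) and 7.61 ± 1.89 in CCR2low macrophages (adjusted p = 0.00517). Without the mouse 26 replicate the 3 differences were 7.87 (adjusted p = 0.00738), 6.91 (adjusted p = 0.00838) and 5.83 (adjusted p = 0.0186). The Ly6Chigh level rested on the 8 reads of mouse 22, without which Ptgs2 was at least 838.5-fold, 339-fold and 193-fold higher. Leaving out Ly6Chigh mouse 24 gave log2 differences of 8.75, 7.45 and 6.63 (adjusted p = 0.0175, 0.0283 and 0.0415). Over Ly6Clow monocytes, where no read was found, Ptgs2 was at least 867-fold (adjusted p = 0.000523), 350.3-fold (adjusted p = 0.000999) and 200.01-fold higher (adjusted p = 0.00175). Without mouse 26 these bounds fell to 247-fold, 127-fold and 59.7-fold. Within the brain the order ran opposite to that of Ptgs1, in each of the 3 mice with all 3 GFPneg populations: the means fell from 999.7 CPM in GFPneg glioma monocytes to 404 and 231 CPM in CCR2high and CCR2low macrophages. Neither macrophage population was called against glioma monocytes. The difference of CCR2high macrophages changed sign without the glioma monocytes of mouse 26 (log2 difference 0.48, against −1.30 with them). With the mouse as a block the difference between CCR2low macrophages and glioma monocytes was called (adjusted p = 0.0182).

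The balance of the cyclooxygenases varied with both mouse and population. Ptgs1 made up 33.1 and 49.1% of the length-scaled sum of Ptgs1 and Ptgs2 in GFPneg glioma monocytes of mice 22 and 24, and 66.4 to 82.1% and 86.2 to 95.7% in GFPneg CCR2high and CCR2low macrophages of mice 22, 23 and 24. Mouse 26 gave 6.75, 28.2 and 44.3% in the same order. The share rose from monocytes to CCR2high to CCR2low macrophages in each of the 3 mice that had all of these populations.

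Hpgds (chr6:65117293-65144908, minus strand), the haematopoietic prostaglandin D2 synthase, had 1 read in all Ly6Chigh replicates together. Among Ly6Clow replicates it was found in mouse 23 alone, at 23.1 CPM. GFPneg glioma monocytes held 57.2, 64.2 and 32.3 CPM, CCR2high macrophages 146, 118, 151 and 107 CPM, and CCR2low macrophages 166, 132, 197 and 128 CPM. Every brain replicate, from 32.3 to 197 CPM, lay above every blood replicate. The ratio of summed counts over Ly6Chigh monocytes was 434-fold in glioma monocytes (95% counting interval 77.3 to 17206, adjusted p = 3.76e-05), 1019-fold in CCR2high (183 to 40275, adjusted p = 3.25e-06) and 1250.5-fold in CCR2low macrophages (224 to 49423, adjusted p = 1.94e-06). Without Ly6Chigh mouse 24, which held the 1 read, Hpgds was at least 29.8-fold, 75.9-fold and 90.5-fold higher. Over Ly6Clow monocytes it was 6.64-fold (adjusted p = 0.0169), 17-fold (adjusted p = 0.000584) and 20.2-fold higher (adjusted p = 0.000337). These folds rested on mouse 23, the source of every Ly6Clow read: without it Hpgds was at least 44.5-fold, 113.5-fold and 135-fold higher. With only the compared populations all of these calls over Ly6Clow were lost (adjusted p = 0.618, 0.145 and 0.129). The glioma monocyte call was also lost with no filter (adjusted p = 0.0503). The Hpgds call between the 2 blood populations (log2 difference 5.58 ± 1.36, adjusted p = 0.0147) rested on mouse 23: without that Ly6Clow replicate the difference was −1.92 (adjusted p = 0.671) with no read left in that population, and the call was also lost without any 1 Ly6Chigh replicate (adjusted p from 0.0532 to 0.0883). No filter and spike-in scaling ended it too (adjusted p = 0.0554 and 0.449).

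Ptges (chr2:30889471-30929863, minus strand), an inducible prostaglandin E2 synthase, stayed at or below 22.9 CPM in every replicate. It was at 0 in all 3 Ly6Clow replicates and at 5.62, 3.51 and 5.23 CPM in Ly6Chigh ones, a difference in which the groups did not overlap and which missed the threshold (adjusted p = 0.0685; DESeq2 adjusted p = 0.0127). Against Ly6Clow monocytes Ptges was at least 6.09-fold higher in GFPneg glioma monocytes (adjusted p = 0.0220), 4.08-fold in CCR2high (adjusted p = 0.0258) and 3.49-fold in CCR2low macrophages (adjusted p = 0.0313), where 1 replicate was also at 0. Leaving out Ly6Clow mouse 22 or 23 ended all 3 calls and leaving out Ly6Clow mouse 24 ended both macrophage calls (adjusted p from 0.0534 to 0.0899). The glioma monocyte call was also lost without GFPneg glioma monocyte mouse 22 (at least 3.91-fold, adjusted p = 0.0561). The CCR2low bound rested on mouse 26, at 13.2 CPM: without it the mean, 0.97 CPM, lay under the Ly6Clow floor of 1.15 CPM, which leaves no fold (adjusted p = 0.119). The CCR2low call was also lost with the mouse as a block (adjusted p = 0.0627).

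Pla2g7 (chr17:43568098-43612201, plus strand), which encodes the secreted platelet-activating factor acetylhydrolase, was high everywhere and was called in none of the 13 comparisons. It ran from 378 to 1577 CPM in blood and 566 to 1688 CPM in the brain. Mouse 22 was the highest or second highest in all 8 populations: its values were 1577 CPM in Ly6Chigh, 1196 CPM in Ly6Clow and 1575 CPM in GFPneg glioma monocytes. With the mouse as a block, CCR2high macrophages were called above Ly6Clow monocytes (adjusted p = 0.0238). Without Ly6Clow mouse 22 both CCR2high macrophages (adjusted p = 0.0281) and GFPneg glioma monocytes (adjusted p = 0.0289) were called above them. 1700071M16Rik, an antisense gene, covers 11% of the Pla2g7 exons.

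Alox15 (chr11:70344152-70352031, minus strand), the 12/15-lipoxygenase known from eosinophils and from resident macrophages of the body cavities, was highest in 2 populations. Ly6Clow monocytes held 392, 388 and 52.7 CPM, and GFPneg CCR2low macrophages 22.6, 106, 168 and 81.7 CPM. In all other populations no replicate exceeded 17.6 CPM, the value of GFPneg CCR2high mouse 24. Alox15 was 129-fold higher in Ly6Clow than in Ly6Chigh monocytes (log2 difference 7.25 ± 1.34, adjusted p = 0.00166), and 44.0-fold higher in GFPneg CCR2low macrophages than in Ly6Chigh monocytes (5.70 ± 1.26, adjusted p = 0.00162). The Ly6Chigh level rested on mouse 23, at 6.44 CPM, as the other two replicates held 0. Without it the log2 differences were 12.58 (at least 240.2-fold, adjusted p = 0.00167) and 11.08 (at least 81.8-fold, adjusted p = 0.00045), and without Ly6Chigh mouse 22 or 24 they were 6.61 and 6.42, and 5.11 and 4.87. It was lower than in Ly6Clow monocytes in GFPneg glioma monocytes (−6.33 ± 1.27, adjusted p = 0.000807) and CCR2high macrophages (−5.67 ± 1.06, adjusted p = 0.000342). The latter was −7.35 without CCR2high mouse 24, and the former −5.68 and −7.00 without glioma monocyte mouse 22 and 24. With spike-in scaling both calls were lost (adjusted p = 0.0767 in glioma monocytes and 0.0922 in CCR2high macrophages). The call between the blood populations was lost with spike-in scaling (adjusted p = 0.101) and with only the compared populations (adjusted p = 0.325). GFPneg CCR2low macrophages were 27.3-fold above GFPneg glioma monocytes (4.78 ± 1.18, adjusted p = 0.0400), a call lost in 6 of 7 fits that left out 1 replicate (all but CCR2low mouse 22, with adjusted p from 0.0580 to 0.200) and also with no filter, the first library alone or spike-in scaling. CCR2high macrophages were called above Ly6Chigh monocytes without Ly6Chigh mouse 23 (adjusted p = 0.0348), and not with it (adjusted p = 0.421).

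Markers of other cells moved in part with Alox15 in both populations. In GFPneg CCR2low macrophages the 4 eosinophil markers summed to 52.9, 180.0, 248 and 81.2 CPM in mice 22, 23, 24 and 26, the same order of mice as Alox15. Among these markers the eotaxin receptor gene Ccr3 held 17.6, 73.6, 69.8 and 38.0 CPM, against 2.34, 3.02, 8.05 and 0 CPM in GFPpos CCR2low macrophages, and the granule gene Epx was at 0 in both. The 7 neutrophil markers summed to 95.8, 510.1, 1975 and 534 CPM in the GFPneg and 7.50, 95.2, 789.7 and 148 CPM in the GFPpos population. The highest eosinophil marker sum outside this population, 149.8 CPM, was in GFPpos glioma monocytes of mouse 24, where Alox15 was at 0. In Ly6Clow monocytes eosinophil markers summed to 0 to 23.6 CPM, and the 10 serous cavity macrophage markers to 225, 660.1 and 37.6 CPM, lowest in mouse 24 as Alox15 was. Prg4, 1 of these 10, held 86.8, 140 and 13.6 CPM there and at most 0.562 CPM in Ly6Chigh monocytes, while the defining factor Gata6 was at 0 in both. Mouse 24 was also the lowest Ly6Clow replicate for Ltc4s, Ptgs1 and Lta4h. The 6 dendritic cell markers summed to 577.9, 1895 and 1291 CPM in Ly6Clow and 175, 100.2 and 219 CPM in Ly6Chigh monocytes, with no overlap, so they moved with every difference between these populations. The part of these cells in the results was not tested.

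**Figure D4:**
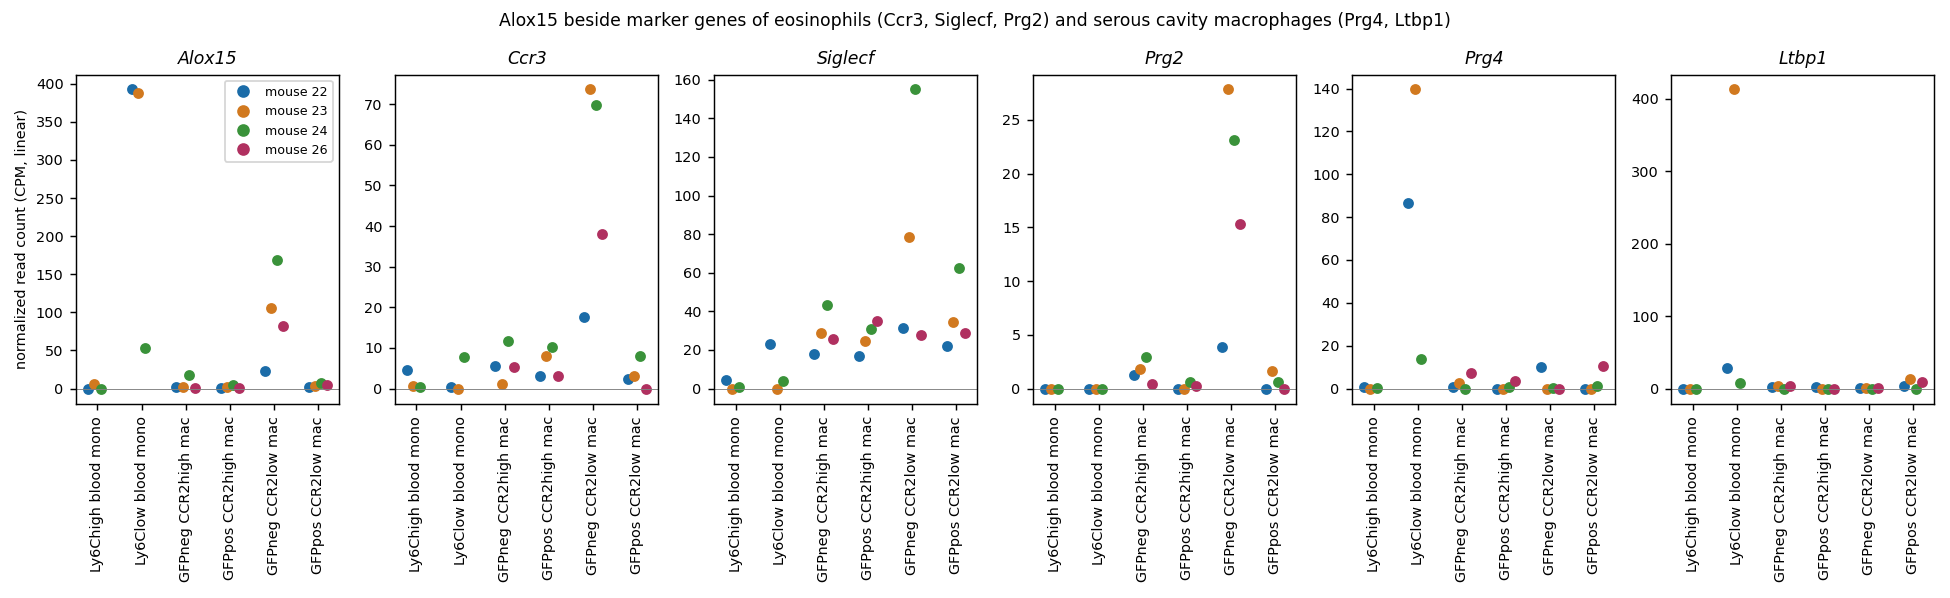
CPM (linear axes, 1 point per mouse) of Alox15 beside eosinophil markers Ccr3, Siglecf and Prg2 and serous cavity macrophage markers Prg4 and Ltbp1 in 6 populations. Among macrophages Alox15 and the 3 eosinophil markers have their highest values in GFPneg CCR2low cells, and in Ly6Clow monocytes Alox15 stands beside Prg4 and Ltbp1. Prg4 and Ltbp1 are picked from a list of 10 markers.

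The counts of members called were read against all genes tested. Between the blood populations, Ly6Clow monocytes had 5 of 10 members higher than Ly6Chigh monocytes and 0 lower, where 3.65% of all genes tested were higher and 1.96% lower. Over Ly6Chigh monocytes GFPneg glioma monocytes had 4 members higher and 1 lower (all genes: 11.1% and 2.68%), CCR2high macrophages 4 higher and 1 lower (12.7% and 5.14%), and CCR2low macrophages 5 higher and 1 lower (14.1% and 6.09%). Ltc4s, Ptgs1, Ptgs2 and Hpgds were the 4 higher members in all 3 of these comparisons, which share their Ly6Chigh replicates. Over Ly6Clow monocytes, glioma monocytes had 4 members higher and 3 lower (13% and 5.51%), CCR2high macrophages 5 higher and 4 lower (14.7% and 8.39%), and CCR2low macrophages 5 higher and 2 lower (15% and 8.35%). These 3 likewise share their Ly6Clow replicates. When only the compared populations were fitted, 0 members were called between the blood populations and 2, 4 and 3 over Ly6Clow, and 0 were called between the blood populations with spike-in scaling. The median log2 difference of the 10 members was 0.98 between the blood populations (all genes −0.02) and 3.11 in CCR2low macrophages over Ly6Chigh monocytes (all genes 0.17), the largest of the 13 comparisons.

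Fewer calls were made within the brain, for members and for all genes. GFPneg CCR2low macrophages had 2 members (Alox15 and Ptgs1) higher than GFPneg glioma monocytes and 0 lower (all genes: 0.147% and 1.06%). With the mouse as a block 4 members were called, the other 2 being Alox5ap and Ptgs2, both lower. Across the alternatives 1 to 293 of all genes were called in that comparison. Between GFPneg CCR2high macrophages and glioma monocytes 0 members were called by edgeR (all genes: 0% higher and 0.182% lower), 3 had an unadjusted p under 0.05 and DESeq2 called 1. Over all genes, 191 higher and 431 lower were under 0.05 before adjustment there, and 0 to 101 were called across the alternatives. Between the GFPneg CCR2low and CCR2high macrophages 0 members were called (all genes: 0% and 0%), with 2 under 0.05 before adjustment (Alox5 and Alox15) and 1 called by DESeq2 (Alox15, adjusted p = 0.0180). Over all genes, that comparison had 180 higher and 96 lower at an unadjusted p under 0.05, and DESeq2 called 9.

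**Figure D5:**
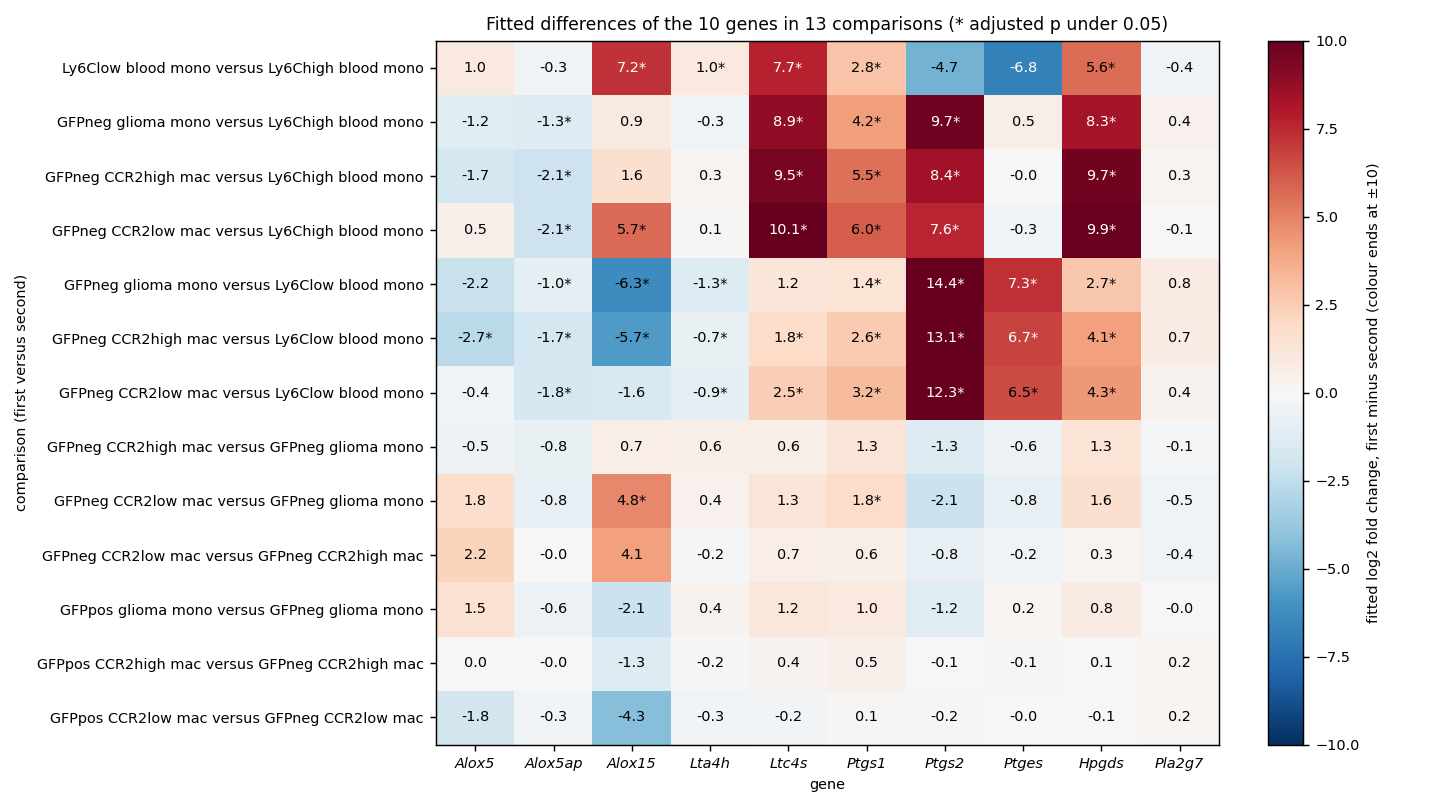
Fitted log2 difference (first population minus second, printed in each cell) of the 10 genes (columns) in the 13 comparisons (rows); asterisks mark an adjusted p under 0.05, and colours end at 10 either way. Calls fill the upper 7 rows, where a blood population is compared, and 2 remain below them.

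Uptake of tumour-derived GFP went with no member called by edgeR in glioma monocytes (all genes: 0% and 0%), CCR2high macrophages (0% and 0%) or CCR2low macrophages (0% and 0%). The members with an unadjusted p under 0.05 numbered 3, 0 and 2, and DESeq2 called 0, 0 and 1. Over all genes, 366 higher and 373 lower, 33 and 36, and 42 and 142 were under 0.05 before adjustment in the 3 cell types, and DESeq2 called 15, 1 and 3. The member called by DESeq2 was Alox15 in CCR2low macrophages, where GFPpos cells held 2.34, 3.96, 7.76 and 5.23 CPM against 22.6, 106, 168 and 81.7 CPM in GFPneg cells. GFPpos cells were lower in 4 of 4 mice and the groups did not overlap (log2 difference −4.27 ± 0.98; edgeR adjusted p = 0.567; DESeq2 adjusted p = 0.0390). The eosinophil and neutrophil markers given above were lower in the same GFPpos cells.

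Alox5 went the same way in CCR2low macrophages, with 6.09, 12.8, 25.3 and 18.8 CPM in GFPpos and 29.7, 65.6, 80.0 and 46.9 CPM in GFPneg cells, lower in 4 of 4 mice (log2 difference −1.81 ± 0.72, adjusted p = 1). In glioma monocytes Alox5 was higher in GFPpos cells in 3 of 3 mice, with 27.9, 91.3 and 25.9 CPM against 5.02, 25.7 and 18.7 CPM (log2 difference 1.54 ± 0.84, adjusted p = 0.8293). The test of the difference between these 2 effects gave 3.36 ± 1.11 on the log2 scale and did not pass adjustment over all genes (adjusted p = 0.99998). Ptgs1 was higher in GFPpos cells in 3 of 3 mice in glioma monocytes and 4 of 4 in CCR2high macrophages (552, 469.8, 665 and 531 CPM, against 337, 376, 462 and 392 CPM), without passing (adjusted p = 1 in the latter). Lta4h was higher in GFPpos glioma monocytes in 3 of 3 mice and lower in GFPpos cells in 4 of 4 mice in both CCR2high and CCR2low macrophages. Ltc4s and Hpgds were higher in GFPpos glioma monocytes in 3 of 3 mice and Ptgs2 lower in 3 of 3. Pla2g7 was higher in 4 of 4 mice in CCR2high macrophages, and Alox5ap lower in 4 of 4 in CCR2low macrophages. None of these passed, and the share of all genes with 1 direction in every mouse was not counted. For a difference of GFP effects between cell types 0 members were called by edgeR and 0 by DESeq2, and before adjustment Alox5, Lta4h and Ltc4s (glioma monocytes against CCR2low) and Alox15 (CCR2high against CCR2low) were under 0.05.

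Of the other genes of the pathway, 54 were in the count tables and 35 were tested. Between the blood populations 3 were called, all lower in Ly6Clow monocytes (all genes: 3.65% higher and 1.96% lower). They were Pla2g4a, the phospholipase that frees arachidonic acid (16.9 ± 9.81 against 56.4 ± 21.8 CPM, SD, n = 3 each), the cysteinyl leukotriene receptor Cysltr1 (16.3 ± 15.5 against 58.5 ± 7.17 CPM) and Ptgr1, which breaks down leukotriene B4 (4.45 ± 4.08 against 24.7 ± 7.69 CPM). Against Ly6Chigh monocytes 7, 11 and 13 of the 35 were called in GFPneg glioma monocytes, CCR2high and CCR2low macrophages (higher in 4, 7 and 8). Of all genes tested, 11.1, 12.7 and 14.1% were higher and 2.68, 5.14 and 6.09% lower there. Against Ly6Clow monocytes 13, 14 and 16 were called (higher in 10 each), where 13, 14.7 and 15% of all genes were higher and 5.51, 8.39 and 8.35% lower.

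Among synthases outside the 10 genes, Tbxas1, the thromboxane synthase, was higher in all 3 brain populations than in both blood ones. It held 60.0 ± 22.6 CPM in Ly6Chigh and 28.3 ± 16.9 CPM in Ly6Clow monocytes, and 125 ± 12.9, 189 ± 39.2 and 212 ± 39.0 CPM in GFPneg glioma monocytes, CCR2high and CCR2low macrophages. Fam213b, a prostaglandin F synthase, rose over both blood populations in CCR2high (51.0 ± 8.26 CPM) and CCR2low macrophages (42.8 ± 9.35 CPM) from 19.2 ± 7.73 CPM in Ly6Chigh monocytes. Lpcat2, which makes platelet-activating factor, the substrate of Pla2g7, held 117 ± 12.2 CPM in Ly6Chigh monocytes and 339.9 ± 82.9, 566 ± 138 and 614 ± 138 CPM in the 3 brain populations (adjusted p = 0.0123, 0.000211 and 0.00011). The phospholipase Pla2g15 rose to 251 ± 29.6 and 317 ± 24.6 CPM in the macrophages from 103 ± 24.6 CPM in Ly6Chigh monocytes. Pla2g4a was called above Ly6Clow monocytes in all 3 brain populations, and above Ly6Chigh monocytes in CCR2high macrophages alone.

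Several genes of breakdown, export and sensing fell. Hpgd, the enzyme that starts the breakdown of prostaglandin E2, fell from 362 ± 22.4 CPM in Ly6Chigh and 685 ± 178 CPM in Ly6Clow monocytes to 32.0 ± 26.8, 49.6 ± 45.4 and 71.2 ± 58.4 CPM in GFPneg glioma monocytes, CCR2high and CCR2low macrophages. All 6 of these differences were called (adjusted p from 0.000166 to 0.00939). The prostacyclin receptor Ptgir fell from 117 ± 46.5 CPM in Ly6Chigh monocytes to 9.0 ± 3.81, 1.88 ± 2.28 and 0.264 ± 0.527 CPM (adjusted p = 0.0476, 0.000989 and 0.000121). Abcc4, a transporter that exports prostanoids, fell from 52.9 ± 25.2 CPM to 4.72 ± 3.63 and 4.08 ± 1.85 CPM in glioma monocytes and CCR2high macrophages.

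The leukotriene receptors did not share a direction. Ltb4r1, the leukotriene B4 receptor, held 191 ± 15.8 CPM in Ly6Chigh monocytes and 37.6 ± 10.7 and 33.8 ± 12.5 CPM in CCR2high and CCR2low macrophages (adjusted p = 0.0150 and 0.00933), and 145 ± 23.4 CPM in glioma monocytes, where it was not called. Cysltr1 rose over Ly6Clow monocytes to 119 ± 23.1, 92.1 ± 15.3 and 73.7 ± 20 CPM in the brain populations (adjusted p = 6.25e-05, 0.000161 and 0.000624). Ptafr, the receptor of platelet-activating factor, was 268 ± 35.5 CPM in glioma monocytes and 72.8 ± 25.3 CPM in CCR2low macrophages (log2 difference −1.88 ± 0.40, adjusted p = 0.0131). Akr1b3, a prostaglandin F synthase, went the other way in that comparison, from 82.7 ± 11 to 154 ± 25.6 CPM (adjusted p = 0.0345).

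The order of the levels separated few neighbouring populations. Of the 7 steps between neighbours, replicates overlapped in 4 for Ptgs1, in 5 for Alox5ap, in 6 for Alox15, Lta4h, Ltc4s, Ptgs2, Ptges and Hpgds, and in all 7 for Alox5 and Pla2g7. How often steps are free of overlap over all genes was not counted, so these counts do not set the members apart from other genes. For Ptgs1 the steps without overlap were those from GFPpos to GFPneg CCR2high macrophages, from GFPneg glioma monocytes to Ly6Clow monocytes and from Ly6Clow to Ly6Chigh monocytes. For Alox5ap they were the step from Ly6Clow monocytes to GFPneg glioma monocytes and the lowest step, from GFPneg to GFPpos CCR2low macrophages.

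Likeness of pattern is given as Pearson's r of log2 CPM over the 28 replicates. These share 4 mice, and the contrast of blood with brain alone can set a high r. Among members the closest pairs were Ltc4s with Ptgs1 (r = 0.951), Ptgs1 with Hpgds (r = 0.932) and Ltc4s with Hpgds (r = 0.903), the genes whose promoter sites are printed above, and Alox5ap ran opposite to Ptgs1 (r = −0.887). Of the 11566 genes tested, Ptgs1 was most like Cd72 (0.976), Cd81 (0.965) and C1qa (0.964), and Ltc4s most like Cd81 (0.965), Fcrls (0.961) and C1qa (0.959). Hpgds was most like Tlr12 (0.973), Mmp12 (0.971) and Lap3 (0.958). Ptgs2 was most like Cxcl2 (0.967), Nos2 (0.954) and Il1r2 (0.951), genes known to be induced in inflamed myeloid cells. Alox5ap was most like Cdc42se1 (0.943), Adgre5 (0.941) and Rab29 (0.941), and Lta4h like Retnla (0.820), Rap1b (0.810) and Etfb (0.800). The closest genes of the remaining members were these: for Alox5 (Neat1 0.735, Tet3 0.661, Itgb3 0.621), Alox15 (Aff3 0.729, the neutrophil gene Retnlg 0.715, Siglecg 0.709), Pla2g7 (Saa3 0.824, C5ar1 0.749, Nr1h3 0.737) and Ptges (Gas2l3 0.648, Fam188b 0.647, Pik3r2 0.647).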

How the data were processed

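RNA of 8 sorted populations from 4 mice was primed on poly-A tails and made into cDNA libraries with ultra-low-input kits, and the authors aligned reads with STAR to mouse GRCm38, removed duplicates with Picard 1.8.4 and counted reads per gene with HTSeq. The deposited values are raw read counts per gene. Strand use in counting was not given in the sources used here, so reads of overlapping antisense genes cannot be told apart. The 10 members, the pathway list and the marker lists were chosen with earlier results of these data known.

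Of 30 libraries, 1 (Ly6Clow monocytes, mouse 23) was left out because it did not reach 6000 genes of at least 5 reads each, and 2 of GFPpos glioma monocytes of mouse 22 were summed, giving 28 replicates. No-feature reads (6.28 to 17.4%), ambiguous reads (1.58 to 1.90%) and 92 spike-in RNAs stayed out of library sizes. edgeR 4.0.16 in R 4.3.3 (TMM, filterByExpr, robust quasi-likelihood fit over all 8 populations) tested 13 comparisons and 3 differences of GFP effects, adjusted by Benjamini-Hochberg over 11566 genes. CPM uses TMM-scaled library sizes, and log2 CPM a prior count of 2. Folds are ratios of mean CPM (of summed counts where a group held 3 reads or fewer), or bounds at 3 counts per library. A 95% counting interval covers counting error only, since no molecular identifiers were used. Alternatives were DESeq2 1.42.0 (size factors and test), no filter, only the compared populations, spike-in scaling, the first library alone, a prior count of 0.5, the mouse as a block, and each replicate left out. Gene positions are from GENCODE vM21, promoters from RefSeq.

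Replicate numbers in the sample titles were read as mouse numbers, so equal numbers pair samples of 1 animal. Deviations from group means of such pairs correlated at −0.0971 to 0.0658 between blood and brain. They correlated at 0.0869 to 0.255 within blood and at 0.0758 to 0.674 within the brain. The main fit took no account of the mouse, so its within-brain tests left this pairing unused. The named genes were all 10 members, up to 8 called pathway genes per comparison with a mean of at least 10 CPM in either group, the 3 genes most like each member, and the markers. Tests were checked on simulated data.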

Additional observations from a re-analysis of the deposited data

Results flagged for a closer look

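In groups of 4 mice, 9 of 40 gene and population pairs held 1 mouse set apart from the other 3 by Dixon's 95% criterion. For independent, normally distributed values it flags about 1 in 20. These values are linear CPM of populations that share their mice, so that rate cannot tell how many to expect here. Mouse 26 accounted for the 4 Ptgs2 cases, with 1177 CPM in GFPneg CCR2high, 1229.5 CPM in GFPpos CCR2high, 716 CPM in GFPneg CCR2low and 579.6 CPM in GFPpos CCR2low macrophages. It was also the low value of Ptgs1 in GFPpos CCR2low macrophages, at 431 CPM. Mouse 24 was the high value in the other 4: Alox15 in GFPneg CCR2high macrophages (17.6 CPM), Lta4h in GFPneg CCR2low macrophages (109 CPM), Ltc4s in GFPneg CCR2low macrophages (94.8 CPM) and Ptges in GFPpos CCR2low macrophages (12.6 CPM). In GFPneg CCR2low macrophages mouse 24 also held the highest summed microglia (5347 CPM) and neutrophil markers (1975 CPM), and their part in these values was not tested.

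The Ly6Clow library of mouse 23 that entered no comparison held 24 reads of Alox5, 1560 of Alox5ap, 130 of Alox15 and 871 of Pla2g7, each above the limit of 3 counts. It held 1 read of Lta4h and 0 of Ltc4s, Ptgs1, Ptgs2, Ptges and Hpgds.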

How the results depend on the processing

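Of 46 member differences called, 18 kept the call under every alternative. In 45 the sign was kept, with spike-in differences taken relative to the shift in the median of all genes. The exception was Hpgds between the blood populations, which leaving out 1 replicate moved from −1.92 (without Ly6Clow mouse 23) to 7.39. DESeq2 size factors lost 0 calls, DESeq2's test lost 0 and gained 6, the first library alone lost 1, the mouse block lost 1 and gained 5, and no filter lost 6. Spike-in scaling lost 19 and gained 2. It shifted the median of all genes by up to −1.67 (Ly6Clow against Ly6Chigh) and 1.62 (log2). The spike-in differences are given with that shift taken off, whereas their adjusted p-values test the differences before it. Taking the shift off returns most of the change in scale, so a kept sign says little about spike-in scaling. Signs before that step were not counted. Those of Alox5ap against Ly6Clow monocytes were opposite in the GFPneg brain populations. A fit of only the compared populations lost 14 of 41 and gained 4. A prior count of 0.5 moved 5 of 80 mean levels by over 1 SD.

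For Ly6Clow against Ly6Chigh monocytes 5 members became 3 with no filter, 0 with only these populations and 0 with spike-ins, and 3 to 5 with 1 replicate left out. For CCR2low macrophages against glioma monocytes 2 became 1 with the first library or no filter, 4 with only these populations or the block, 0 with spike-ins, and 0 to 1 with 1 replicate left out. With only the compared populations, the counts over Ly6Clow fell to 2 (glioma monocytes, from 7), 4 (CCR2high, from 9) and 3 (CCR2low, from 7). A count of 0 became 1 for CCR2high macrophages against glioma monocytes (DESeq2, only these populations, block), CCR2low against CCR2high (DESeq2) and GFPpos against GFPneg CCR2low (DESeq2). The block changed no other count by over 1.5 times. The cause was not tested.

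Counts over all genes moved by over 1.5 times: from 649 to between 0 (only these populations) and 2444 (without Ly6Clow mouse 24) in blood; over Ly6Chigh from 1596, 2060 and 2340 to 398, 523 and 591 (spike-ins); over Ly6Clow from 2143, 2669 and 2705 to 226, 787 and 738 (only these populations), the first rising to 3310 without Ly6Clow mouse 24; and against glioma monocytes from 21 to between 0 and 101, and from 140 to between 1 and 293. DESeq2 called 9, 15, 1 and 3 genes where edgeR called 0 (CCR2low against CCR2high, and GFP in glioma monocytes, CCR2high and CCR2low macrophages). Low counts limit Ptges, Alox15 and blood Hpgds.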
